A study of Mus musculus with 8 samples.

Results

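Endoderm is the germ layer that lines the gut and forms the liver, and in the mouse embryo a separate extraembryonic endoderm arises beside the pluripotent epiblast. The genes described here are 7 regulators and markers of these lineages: Gata4, Gata6, Sox7, Sox17, Foxa2, Dab2 and Afp. They were found by name, as every array probe whose gene name or accession carried 1 of these symbols, and are 7 of the 27620 genes on the array. They were represented by 15 probes.

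The arrays compared 4 mouse cell populations. PM2i-iPSC were mouse embryonic fibroblasts treated with combinations that contained purmorphamine, a small-molecule agonist of the Hedgehog component Smoothened, and then with 2i/LIF. OM2i-iPSC were fibroblasts treated with combinations that contained an oxysterol, likewise with 2i/LIF, a medium with inhibitors of MEK and GSK3 and the cytokine LIF. ES were embryonic stem cells of the 129/Ola background from blastocysts, and MEF were fibroblasts from embryos with no treatment in the labels. For PM2i-iPSC, OM2i-iPSC and MEF the labels give no genetic background, and for the treated cells no other agent of the combinations, no dose, no duration and no clone number. Another 4 samples of the series, on an Affymetrix array, were not analysed here, because its probe sets could not be matched to genes. Each group was measured on 1 array, so no difference below has a test, and each describes these arrays.

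As background, the inner cell mass of the blastocyst separates into epiblast, from which ES cells are taken, and primitive endoderm. Fibroblast growth factor signalling through MEK favours Gata6 and primitive endoderm, and Gata4, Sox17 and Sox7 follow as that lineage matures into visceral and parietal endoderm. Dab2, Afp and Foxa2 mark derivatives of it, and Foxa2 and Sox17 also mark the definitive endoderm of the gastrulating embryo.

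Levels are given as log2 of the processed signal minus log2 of the 75th percentile of the array, so a level of 0 is the 75th percentile. The percentile was a signal of 3530.7 on the PM2i-iPSC array, 3460.7 on the OM2i-iPSC array, 3160.1 on the ES array and 1876.7 on the MEF array. Spots well above background by the flag of the scanner software made up 63.4% to 72.8% of each array. The lowest signal so flagged was at a level of -4.59 in PM2i-iPSC, -4.60 in OM2i-iPSC, -5.13 in ES and -6.85 in MEF. Spots of the same probe differed within an array with a pooled SD of 0.14 to 0.25 on the log2 scale. For a difference between 2 arrays this technical spread comes to an SD of 0.30. PM2i-iPSC and ES shared a slide, OM2i-iPSC was on another slide, and MEF was on another slide read on another scan day with older software. Slide and group therefore cannot be told apart wherever MEF or OM2i-iPSC is compared.

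The populations were checked against marker genes, each as a summed signal in multiples of the 75th percentile. All 7 ES markers were well above background on every array. Their sum was 75.7 in PM2i-iPSC, 64.1 in OM2i-iPSC, 92.6 in ES and 1.41 in MEF. The sum of 7 fibroblast markers was 4.22 in PM2i-iPSC, 4.40 in OM2i-iPSC, 6.15 in ES and 131 in MEF. The fibroblast gene Postn was not well above background on the 3 pluripotent arrays. Among these arrays Lum was well above background in ES alone, and Dcn, by its brightest probe, in PM2i-iPSC and ES but not in OM2i-iPSC.

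Of the 15 probes, 5 were well above background on all 4 arrays, 5 on some and 5 on none. Gata4, Gata6, Sox7, Sox17 and Dab2 each had at least 1 probe well above background on some array. Foxa2 and Afp had none. By any probe, 5 of the genes were detected in PM2i-iPSC, 5 in OM2i-iPSC, 5 in ES and 4 in MEF, where Sox17 was the gene not detected. In RNA of whole populations, fewer cells of a type and less RNA per cell cannot be told apart. The plot of levels by probe shows that probes of 1 gene often ran differently across the arrays.

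**Figure D1:**
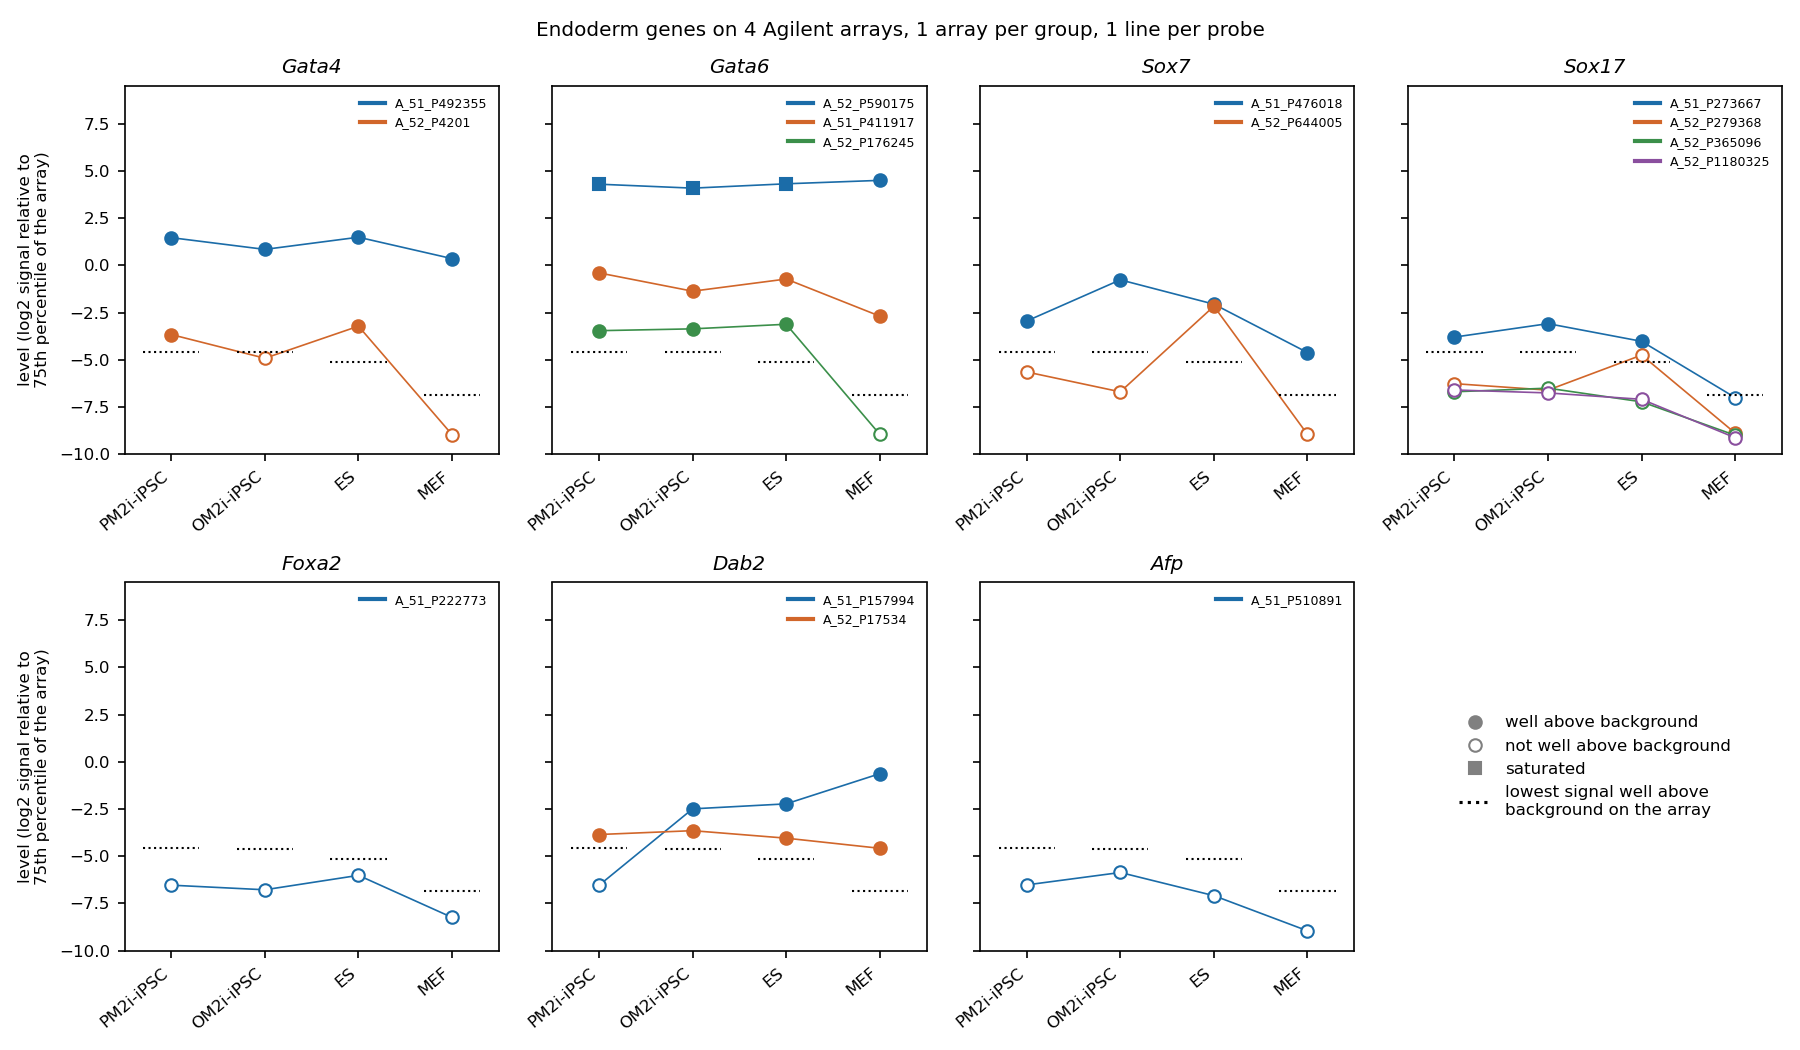
Level of each probe of the 7 endoderm genes (log2 signal relative to the 75th percentile of the array) on the 4 arrays, with 1 line per probe. Filled symbols are well above background, open symbols are not, squares are saturated, and dotted bars give the detection floor of each array, its lowest signal well above background. Foxa2 and Afp lie under the dotted bars on all 4 arrays.

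Gata4 encodes a zinc-finger transcription factor of primitive and visceral endoderm, and also of the heart. Its brighter probe, A_51_P492355, gave levels of 1.47 in PM2i-iPSC, 0.84 in OM2i-iPSC, 1.49 in ES and 0.35 in MEF. This probe was thus well above background in fibroblasts too. Relative to MEF it was 2.16-fold higher in PM2i-iPSC, 1.40-fold higher in OM2i-iPSC and 2.20-fold higher in ES. The difference between OM2i-iPSC and MEF turned to -0.25 on the log2 scale when arrays were scaled to the 50th percentile, and those of PM2i-iPSC and ES came to 0.48 and 0.58, short of 2-fold. PM2i-iPSC lay 1.02-fold below ES, less than the spot spread, and OM2i-iPSC lay 1.56-fold below ES.

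The second Gata4 probe, A_52_P4201, was printed as 10 spots and so gives a measure of its own error. It averaged -3.67 ± 0.41 in PM2i-iPSC over 9 spots, -4.92 ± 0.46 in OM2i-iPSC over 10 spots, -3.22 ± 0.15 in ES over 10 spots and -8.97 ± 0.09 in MEF over 8 spots (SD over spots of 1 array). Every spot was well above background in PM2i-iPSC and ES, against 3 of 10 in OM2i-iPSC and 0 of 8 in MEF. The spots of MEF lay below those of the other 3 arrays, but so did those of the Foxa2 and Afp probes, which were detected on no array. The PM2i-iPSC spots, from -3.98 to -2.70, overlapped those of ES, from -3.47 to -3.00. By this probe Gata4 was at least 9.08-fold higher in PM2i-iPSC and at least 12.4-fold higher in ES than in MEF. PM2i-iPSC lay 1.36-fold and OM2i-iPSC at least 2.60-fold below ES. Both probes placed OM2i-iPSC lowest of the 3 pluripotent arrays, while they differed in whether MEF was well above background.

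On build mm7, both Gata4 probes map to the minus strand of chromosome 14. The MEF file places A_52_P4201 at chr14:58063189-58063248. It places A_51_P492355 at chr14:58062775-58062796, a span of 22 bases for a probe of 60 bases. Of the bases of the brighter probe 53.3% are G or C, against 28.3% for the other. The part of base content in the MEF signal was not tested.

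**Figure D2:**
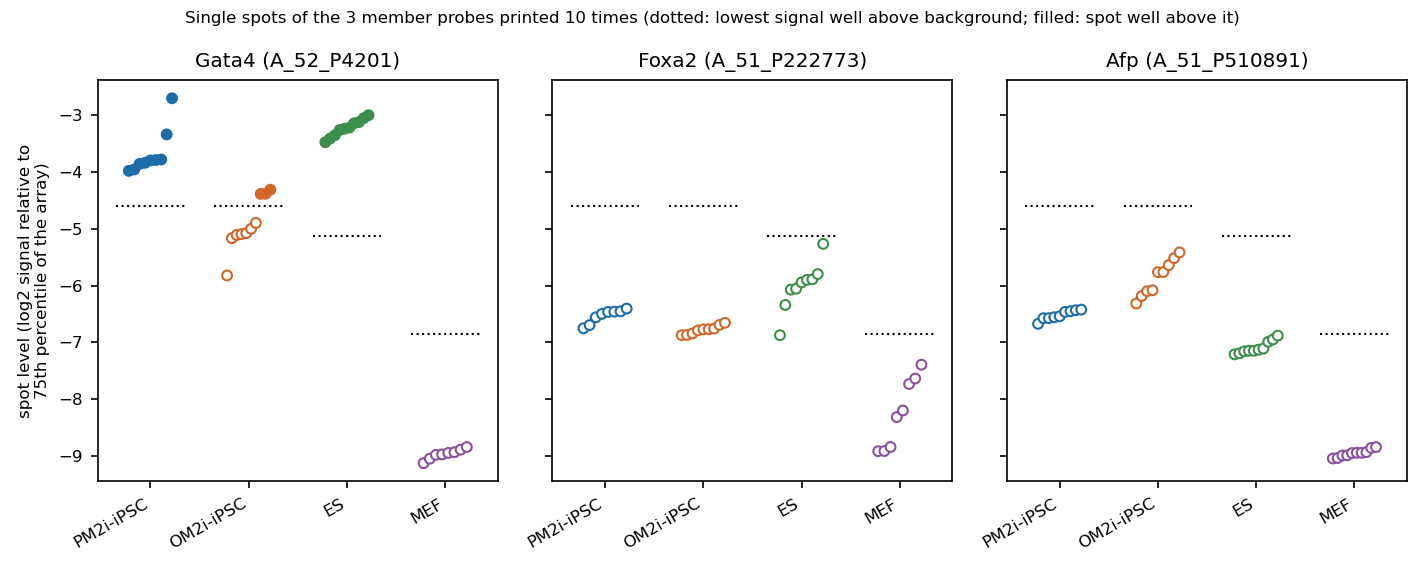
Level of each spot (log2 signal relative to the 75th percentile of the array) of the 3 endoderm probes printed as 10 spots, on the 4 arrays. Filled spots are well above background, and dotted bars mark the lowest signal well above background. Gata4 spots are filled in PM2i-iPSC and ES, partly in OM2i-iPSC and not in MEF, and no Foxa2 or Afp spot is filled.

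Gata6 encodes the zinc-finger factor that opens primitive endoderm specification in the inner cell mass. Its 3 probes disagreed. The brightest, A_52_P590175, gave 4.30 in PM2i-iPSC, 4.09 in OM2i-iPSC, 4.32 in ES and 4.50 in MEF. It was saturated on the first 3 of these arrays, so those levels are lower limits and give no direction against MEF. Scaling also turned the sign: the difference of PM2i-iPSC from MEF was -0.20 as scaled here, -0.83 with the 50th percentile and 0.52 after quantile normalization.

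The 2 unsaturated Gata6 probes were lower in MEF than elsewhere. A_51_P411917 gave -0.40 in PM2i-iPSC, -1.37 in OM2i-iPSC, -0.73 in ES and -2.69 in MEF, all well above background. Relative to MEF this probe was 4.89-fold higher in PM2i-iPSC, 2.50-fold higher in OM2i-iPSC and 3.91-fold higher in ES. A_52_P176245 gave -3.46 in PM2i-iPSC, -3.36 in OM2i-iPSC, -3.12 in ES and -8.96 in MEF, where it was not well above background. Against MEF this is at least 10.5-fold higher in PM2i-iPSC, at least 11.2-fold higher in OM2i-iPSC and at least 13.3-fold higher in ES.

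Between the pluripotent arrays these probes differed by less than 2-fold. On A_51_P411917 it was 1.25-fold higher in PM2i-iPSC than in ES and 1.56-fold lower in OM2i-iPSC than in ES. On A_52_P176245 PM2i-iPSC lay 1.27-fold and OM2i-iPSC 1.18-fold below ES, so the direction for PM2i-iPSC depends on the probe. The saturated probe has 80.0% G or C, a share reached by 0.0267% of all probes, against 45.0% and 36.7% for the other two. The part of base content in these levels was not tested. All 3 map to the plus strand of chromosome 18 in build mm7, A_52_P590175 at chr18:11261086-11261145, A_52_P176245 at chr18:11271063-11271122 and A_51_P411917 at chr18:11291591-11291649.

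Sox7 encodes an F-group Sox transcription factor of primitive and parietal endoderm that is also active in endothelium. Its brighter probe, A_51_P476018, at chr14:58814461-58814520 on the plus strand, gave -2.95 in PM2i-iPSC, -0.77 in OM2i-iPSC, -2.06 in ES and -4.62 in MEF. All were well above background, with OM2i-iPSC highest and MEF lowest. The excess over MEF was 3.18-fold in PM2i-iPSC, 14.4-fold in OM2i-iPSC and 5.91-fold in ES. PM2i-iPSC lay 1.86-fold below ES and OM2i-iPSC 2.44-fold above it, which puts PM2i-iPSC 4.53-fold below OM2i-iPSC. These gaps exceed the spot spread, the only error available for a probe with 1 spot on 1 array. With quantile normalization the log2 difference from MEF was 0.88 in PM2i-iPSC, short of 2-fold, 3.15 in OM2i-iPSC and 1.89 in ES, against 1.67, 3.85 and 2.56 as scaled here.

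The second Sox7 probe, A_52_P644005, at chr14:58808238-58808297, gave another order. Its level was -5.65 in PM2i-iPSC, -6.70 in OM2i-iPSC, -2.16 in ES and -8.96 in MEF. It was well above background in ES alone. It was at least 25.7-fold higher in ES than in MEF, and PM2i-iPSC lay at least 5.37-fold and OM2i-iPSC at least 5.42-fold below ES. For OM2i-iPSC against ES the 2 Sox7 probes therefore point opposite ways. The file names this probe through a different transcript record from the brighter one.

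Sox17, another F-group Sox factor, marks primitive and definitive endoderm. It was read by A_51_P273667, at chr1:4487401-4487460 on the minus strand of build mm7. The probe is shown because every Sox17 fold below comes from it; the letters are those in the deposited array file, 5′ to 3′.
Sox17 A_51_P273667: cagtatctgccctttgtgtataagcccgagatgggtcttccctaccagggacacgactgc
Its level was -3.80 in PM2i-iPSC, -3.09 in OM2i-iPSC, -4.03 in ES and -7.01 in MEF. It was well above background on the 3 pluripotent arrays and not in MEF. The excess over MEF was at least 8.27-fold in PM2i-iPSC, at least 13.6-fold in OM2i-iPSC and at least 7.08-fold in ES. These limits depend on the processing: as log2 differences they were 3.05 in PM2i-iPSC, 3.76 in OM2i-iPSC and 2.82 in ES, against 2.12, 2.69 and 1.96 after quantile normalization and 1.81, 1.81 and 1.09 after normexp background correction. Against ES, Sox17 was 1.17-fold higher in PM2i-iPSC, within the spot spread, and 1.91-fold higher in OM2i-iPSC. OM2i-iPSC was thus the highest array for Sox17, as it was for the brighter Sox7 probe, with PM2i-iPSC 1.64-fold lower than OM2i-iPSC, although after normexp correction these 2 arrays differed by -0.0035 on the log2 scale.

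The other 3 Sox17 probes were well above background on no array. Their levels ran from -6.70 to -6.27 in PM2i-iPSC, from -6.76 to -6.51 in OM2i-iPSC, from -7.23 to -4.75 in ES and from -9.13 to -8.89 in MEF. One of them, A_52_P1180325, maps to the plus strand, opposite to the other Sox17 probes, and is named through another transcript record. Sox17 detection thus rests on 1 of 4 probes.

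Foxa2 encodes a forkhead factor of the node, definitive endoderm and liver, and Afp the main serum protein of visceral endoderm and fetal liver. The Foxa2 probe A_51_P222773, at chr2:147783819-147783878, averaged -6.53 ± 0.13 in PM2i-iPSC over 8 spots, -6.78 ± 0.07 in OM2i-iPSC over 9 spots, -6.01 ± 0.43 in ES over 9 spots and -8.24 ± 0.61 in MEF over 8 spots (SD over spots). No spot was well above background on any array. The highest single Foxa2 spot in ES was at -5.26, against -5.13 for the floor of that array. The Afp probe A_51_P510891, at chr5:90479870-90479929, averaged -6.52 ± 0.08 in PM2i-iPSC over 9 spots, -5.86 ± 0.32 in OM2i-iPSC over 9 spots, -7.09 ± 0.11 in ES over 10 spots and -8.95 ± 0.07 in MEF over 10 spots. It too had no spot well above background. The levels of both genes are only upper limits, so no fold is given for either, and neither was detectable at the signal over background of these arrays.

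Dab2 encodes an endocytic adaptor of the megalin pathway that is needed in visceral endoderm and is also made by fibroblasts and macrophages. MEF was its highest array on the brighter probe, A_51_P157994, at chr15:6266416-6266475. The level was -6.54 in PM2i-iPSC, not well above background, -2.49 in OM2i-iPSC, -2.23 in ES and -0.63 in MEF. PM2i-iPSC was the only array without a signal. The shortfall from MEF was at least 15.6-fold in PM2i-iPSC, 3.64-fold in OM2i-iPSC and 3.03-fold in ES. PM2i-iPSC lay at least 5.14-fold below ES and at least 4.28-fold below OM2i-iPSC, and OM2i-iPSC 1.20-fold below ES.

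The second Dab2 probe did not carry this pattern, and its letters are shown because the direction of Dab2 turns on it. It is A_52_P17534 and spans 444 bases on the plus strand, at chr15:6251189-6251632 of build mm7, for a probe of 60 bases.
Dab2 A_52_P17534: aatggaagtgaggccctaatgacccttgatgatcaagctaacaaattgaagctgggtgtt
It gave -3.85 in PM2i-iPSC, -3.65 in OM2i-iPSC, -4.04 in ES and -4.58 in MEF, all well above background. These levels are near the floors, by 0.74 in PM2i-iPSC, 0.96 in OM2i-iPSC, 1.09 in ES and 2.27 in MEF. The part of the unlike floors in its differences from MEF was not tested. MEF was the lowest array here and the highest on the brighter probe. Relative to MEF, Dab2 by this probe was 1.66-fold higher in PM2i-iPSC, 1.91-fold higher in OM2i-iPSC and 1.45-fold higher in ES. It was 1.14-fold higher in PM2i-iPSC and 1.32-fold higher in OM2i-iPSC than in ES. A further probe, which the array names for a clone now listed as a synonym of Dab2, was not counted among the 15 and was well above background on no array.

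The counts below take each gene by its brightest probe and set it beside all genes treated the same way. Only genes well above background on either of the arrays compared were entered, which kept 5 of the 7 each time. Of these, Gata4, Sox7 and Sox17 were at least 2-fold higher in PM2i-iPSC than in MEF, where 33.9% of all genes entered were, and Dab2 was at least 2-fold lower, as were 23.5% of all genes. In OM2i-iPSC against MEF, 2 were higher (Sox7 and Sox17, beside 36.5% of all genes) and 1 was lower (Dab2, beside 23.2%). In ES against MEF, 3 were higher (Gata4, Sox7 and Sox17, beside 33.7%) and 1 was lower (Dab2, beside 22.4%). On its second probe Dab2 was higher than MEF instead, by 1.66-fold in PM2i-iPSC, 1.91-fold in OM2i-iPSC and 1.45-fold in ES. Gata6 was placed in neither direction here, since its brightest probe gives only a lower limit on these 3 arrays, while on its brightest unsaturated probe it was more than 2-fold higher than MEF in all 3 comparisons. Counts out of 5 genes were not tested against the shares of all genes. With the brightest unsaturated probe of each gene, a choice made after seeing the data, the median difference from MEF over the 5 genes was 1.67 in PM2i-iPSC, 1.32 in OM2i-iPSC and 1.97 in ES, beside 0.28, 0.38 and 0.28 over all genes read that way. By brightest probes the median difference over all genes was 0.26 in PM2i-iPSC, 0.37 in OM2i-iPSC and 0.27 in ES, each against MEF, and it moved to -0.35, -0.37 and -0.28 when arrays were scaled to the 50th percentile.

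Against ES, by brightest probes, 1 endoderm gene was past 2-fold in each preparation. In PM2i-iPSC none was at least 2-fold higher, beside 14.0% of all genes, and Dab2 alone was lower, beside 11.3%. In OM2i-iPSC Sox7 alone was at least 2-fold higher, beside 20.5%, and none was lower, beside 13.5%. Between the 2 preparations, PM2i-iPSC had none higher, beside 12.4%, and Sox7 and Dab2 lower, beside 16.8%, than OM2i-iPSC. Gata6 has no value in these comparisons, since its brightest probe was saturated on both sides. The median over the other 4 genes was -0.46 for PM2i-iPSC against ES, 0.34 for OM2i-iPSC against ES and -1.41 for PM2i-iPSC against OM2i-iPSC, beside -0.04, 0.04 and -0.09 over all genes. With Gata6 added through its brightest unsaturated probe, the medians over 5 genes were -0.02, -0.26 and -0.71 in the same order, so the sign for OM2i-iPSC against ES depends on that gene. Comparisons with ES share the ES array and those with MEF share the MEF array, so they are not independent.

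**Figure D3:**
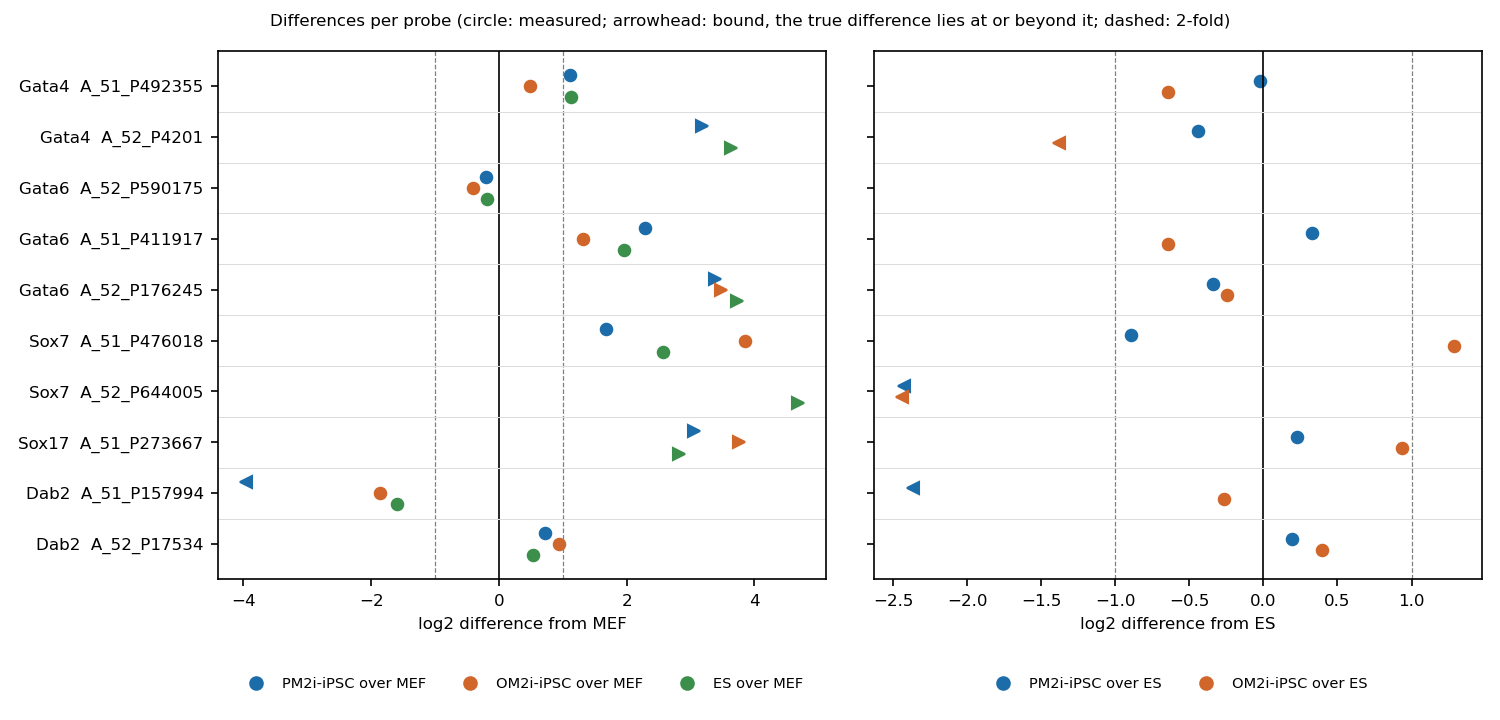
Log2 difference of each endoderm probe with a value from MEF (left) and from ES (right). Circles are measured differences, arrowheads are bounds, and dashed lines mark 2-fold. The circles of Gata6 A_52_P590175 rest on saturated signals. The 2 Sox7 probes lie on opposite sides of 0 for OM2i-iPSC against ES, as do the 2 Dab2 probes against MEF, and most other circles in the ES panel lie inside the 2-fold lines.

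The genes whose levels over the 4 arrays ran most like these members were found by the root mean square difference of levels centred on each gene. The candidates were 12337 genes well above background on all arrays, with clone names and predicted genes left out. Over only 4 arrays such a match is a description. For Gata4, 249 genes lay within a fixed limit set just below the spot SD of 0.209, and Atg14 (0.037) and Mov10 (0.044) were the nearest. For Sox7 6 genes did, with Slc12a8 (0.127) and Zkscan14 (0.140) the nearest. For Gata6, 664 genes did, with Arl14ep (0.0054) and Capns1 (0.010) the nearest, but its probe was saturated on 3 arrays, so this compares limits.

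The other 68 genes of endoderm considered, of which 66 had a probe, were grouped by role. The counts of each group against MEF stand beside the shares of all genes entered, which were 33.9% higher and 23.5% lower by at least 2-fold in PM2i-iPSC. They were 36.5% and 23.2% in OM2i-iPSC, with 33.7% and 22.4% in ES. The medians stand beside 0.26, 0.37 and 0.27 over all genes in PM2i-iPSC, OM2i-iPSC and ES. None of these counts was tested. The inputs and regulators of primitive endoderm were mostly lower in the pluripotent arrays than in MEF. Of the 6 with a probe, 1 lay 2-fold or more above MEF and 4 lay 2-fold or more below it in PM2i-iPSC, with 2 and 4 in OM2i-iPSC and 1 and 4 in ES. The median difference from MEF was -2.09 in PM2i-iPSC, -2.65 in OM2i-iPSC and -2.92 in ES. Hnf4a, a nuclear receptor of visceral endoderm and liver, had levels of -1.88 in PM2i-iPSC, -0.96 in OM2i-iPSC, -1.67 in ES and -2.38 in MEF. A second Hnf4a probe was well above background in PM2i-iPSC alone, at -2.97. The receptors Pdgfra, Fgfr1 and Fgfr2 were highest in MEF by their brightest probes, though a second Fgfr2 probe was not well above background there. Pdgfra, the receptor by which primitive endoderm is often recognised, had -1.40 in PM2i-iPSC, -3.62 in OM2i-iPSC, -1.97 in ES and 2.71 in MEF.

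Fgfr1 and Fgfr2, receptors of the growth factor signal to primitive endoderm, differed between the preparations by their brightest probes. The brightest Fgfr1 probe had 1.38 in PM2i-iPSC, -3.56 in OM2i-iPSC, -2.12 in ES and 4.14 in MEF, so Fgfr1 was 11.3-fold higher in PM2i-iPSC but 2.71-fold lower in OM2i-iPSC than in ES. On 2 further Fgfr1 probes it was 2.36-fold and 3.09-fold higher in PM2i-iPSC, and 3.13-fold and 3.07-fold higher in OM2i-iPSC, than in ES. The brightest Fgfr2 probe had -4.47 in PM2i-iPSC, not well above background, -1.64 in OM2i-iPSC, -3.19 in ES and 2.06 in MEF. A second Fgfr2 probe was at least 1.96-fold higher in PM2i-iPSC than in ES. In OM2i-iPSC the excess over ES was at least 2.12-fold on this probe and 2.93-fold on the brightest. Against MEF, where it was not well above background, this second probe was at least 6.44-fold higher in PM2i-iPSC and at least 6.96-fold higher in OM2i-iPSC, opposite to the brightest. The direction against ES thus depends on the probe for Fgfr1 in OM2i-iPSC and for Fgfr2 in PM2i-iPSC.

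Visceral endoderm genes, which make the absorptive and lipoprotein-secreting epithelium around the embryo, stood higher in the pluripotent arrays than in MEF. Of 14 that entered, 10 were at least 2-fold higher and 1 was lower in PM2i-iPSC than in MEF, with 10 and 2 in OM2i-iPSC (14 entered) and 12 and 1 in ES (15 entered). A fold could be given for 12, 12 and 14 of them. Of all genes, 33.9%, 36.5% and 33.7% were higher and 23.5%, 23.2% and 22.4% lower. The median difference over this list was 2.11 in PM2i-iPSC, 2.55 in OM2i-iPSC and 1.70 in ES. Ttr, the thyroxine carrier, was well above background on none of the arrays. Apoa1, an apolipoprotein, had -6.28 in PM2i-iPSC, -6.19 in OM2i-iPSC, -6.25 in ES and -6.32 in MEF. It was well above background in MEF alone, the array with the lowest floor, at -6.85, so this flag gives no direction. Ttr and Apoa1 are abundant products of that tissue, as is Afp.

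Among its members, Vil1, an actin-bundling protein of microvilli, had levels of -0.31 in PM2i-iPSC, -0.01 in OM2i-iPSC, 0.02 in ES and -9.09 in MEF. Rhox5, a homeobox gene, had -0.24 in PM2i-iPSC, 0.86 in OM2i-iPSC, 0.13 in ES and -4.62 in MEF. Apoa4, an apolipoprotein, had -3.09 in PM2i-iPSC, -1.71 in OM2i-iPSC, -4.04 in ES and -6.78 in MEF, and it was 5.02-fold higher in OM2i-iPSC than in ES. MEF was the lowest array for Vil1, Rhox5 and Apoa4. Apob, the core apolipoprotein of secreted lipoproteins, was 15.8-fold higher in PM2i-iPSC than in MEF on its brightest probe, but at least 3.71-fold lower on another. Cubn, the endocytic receptor cubilin, lay 2.57-fold below ES in PM2i-iPSC and 8.46-fold below it in OM2i-iPSC, and Rbp4, the retinol carrier, was 4.52-fold lower in PM2i-iPSC than in MEF.

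Parietal endoderm and basement membrane genes ran opposite, with 10 of 12 at least 2-fold lower and 1 higher than in MEF in each of PM2i-iPSC, OM2i-iPSC and ES, where 22.4% to 23.5% of all genes were lower and 33.7% to 36.5% higher. The median difference from MEF was -2.59 in PM2i-iPSC, -2.08 in OM2i-iPSC and -1.86 in ES. The gene higher on all 3 was Lama1, a laminin chain of the embryonic basement membrane, with levels of 2.04 in PM2i-iPSC, -1.13 in OM2i-iPSC, 1.10 in ES and -9.03 in MEF. It was 4.67-fold lower in OM2i-iPSC than in ES, and 7.59-fold lower on its second probe. Several of the lower genes, Col4a1 and Nid1 among them, are also made by fibroblasts, whose markers summed to 4.22 in PM2i-iPSC against 131 in MEF, and the part of that in the counts was not tested. Thbd, thrombomodulin, had -2.25 in PM2i-iPSC, -0.58 in OM2i-iPSC, -0.95 in ES and a saturated 5.21 in MEF. Against MEF in PM2i-iPSC, Nid1, a basement membrane linker, was 8.70-fold lower, Serpinh1, the collagen chaperone, 13.6-fold lower, Col4a1, a collagen IV chain, 7.34-fold lower and Fst, the activin antagonist follistatin, at least 83.4-fold lower.

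Genes of anterior visceral and definitive endoderm were mostly higher than in MEF, at 7 higher and 2 lower of 9 entered in PM2i-iPSC, 6 and 2 of 9 in OM2i-iPSC and 7 and 1 of 9 in ES, beside 33.7% to 36.5% of all genes higher and 22.4% to 23.5% lower. The median difference from MEF was 3.84 in PM2i-iPSC, 3.98 in OM2i-iPSC and 3.85 in ES. Several of these genes also act in the epiblast. Nodal, the ligand that patterns the epiblast, had 2.71 in PM2i-iPSC, 3.29 in OM2i-iPSC, 2.95 in ES and -3.06 in MEF. Eomes, a T-box factor of the primitive streak, had -1.56 in PM2i-iPSC, -2.28 in OM2i-iPSC, -1.73 in ES and -6.53 in MEF. Otx2, a head-organiser factor, had -2.31 in PM2i-iPSC, -0.43 in OM2i-iPSC, -2.26 in ES and -8.95 in MEF, and was 3.55-fold higher in OM2i-iPSC than in ES. Cer1, a secreted Nodal antagonist, and Mixl1, a homeobox factor of the primitive streak, were well above background on no array, and Gsc in MEF alone.

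Dkk1, a Wnt antagonist of the anterior endoderm, had -1.27 in PM2i-iPSC, -6.82 in OM2i-iPSC, -1.38 in ES and -3.18 in MEF, and OM2i-iPSC was not well above background. Lhx1, a LIM homeobox factor, had 4.21 in PM2i-iPSC and 4.24 in OM2i-iPSC, both saturated, with 3.79 in ES and -2.48 in MEF. A second Lhx1 probe was well above background on none of these arrays. Cxcr4, the chemokine receptor used to sort definitive endoderm, was 2.78-fold lower in PM2i-iPSC than in MEF on its brightest probe and 1.06-fold higher on the other.

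Liver and gut genes had 4 higher and none lower of 9 entered in PM2i-iPSC against MEF, 4 and none of 10 in OM2i-iPSC, and 4 and 1 of 9 in ES. The higher counts lie near the 33.9%, 36.5% and 33.7% of all genes. A fold could be given for 7, 7 and 8 of these genes. The median difference from MEF was 2.20 in PM2i-iPSC, 2.38 in OM2i-iPSC and 0.97 in ES. Alb, serum albumin, had -1.23 in PM2i-iPSC, -4.67 in OM2i-iPSC, -6.99 in ES and -5.03 in MEF. It was well above background in PM2i-iPSC and MEF, and was at least 14.9-fold higher in PM2i-iPSC than in ES by its single probe. Its chromosomal neighbour and relative Afp had no signal there.

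G6pc, the glucose-6-phosphatase of liver, had -0.97 in PM2i-iPSC, 0.12 in OM2i-iPSC, -0.99 in ES and -3.51 in MEF. Onecut1, a hepatic transcription factor, was 7.02-fold higher in PM2i-iPSC than in MEF on 1 probe and 1.26-fold higher on the other. Sox9 differed by 1.87-fold (lower) between PM2i-iPSC and MEF on its brightest probe, and by at least 120.3-fold and at least 260.4-fold (lower) on its other probes.

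Paralogues of the 7 genes were read as well. Of 9 paralogues, 2 were higher and 2 lower of 5 entered in PM2i-iPSC against MEF, 5 and 2 of 7 in OM2i-iPSC, and 3 and 2 of 5 in ES, beside 33.9%, 36.5% and 33.7% of all genes higher and 23.5%, 23.2% and 22.4% lower. The median difference from MEF was -0.41 in PM2i-iPSC over 4 genes with a fold, 3.01 in OM2i-iPSC over 7 and 3.03 in ES over 5, so these medians cover different genes. On all 3 arrays Gata2 and Gata3 were at least 2-fold lower, and Dab1 and Afm at least 2-fold higher, than in MEF. Gata2 and Gata3, which act in blood and trophoblast, were highest in MEF: Gata3 was at least 40.5-fold lower and Gata2 13.0-fold lower in PM2i-iPSC than in MEF. Foxa1, the forkhead relative of Foxa2, had -4.49 in PM2i-iPSC, not well above background, -2.48 in OM2i-iPSC, -3.00 in ES and -6.03 in MEF. Gata5, of cardiac and gut endoderm, was well above background in OM2i-iPSC alone, at -3.84. Dab1, the neuronal relative of Dab2, was 23.6-fold higher in PM2i-iPSC than in MEF, and Afm, the albumin-family relative of Afp, was at least 7.33-fold higher. A second Afm probe was well above background in OM2i-iPSC alone, at -1.23.

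**Figure D4:**
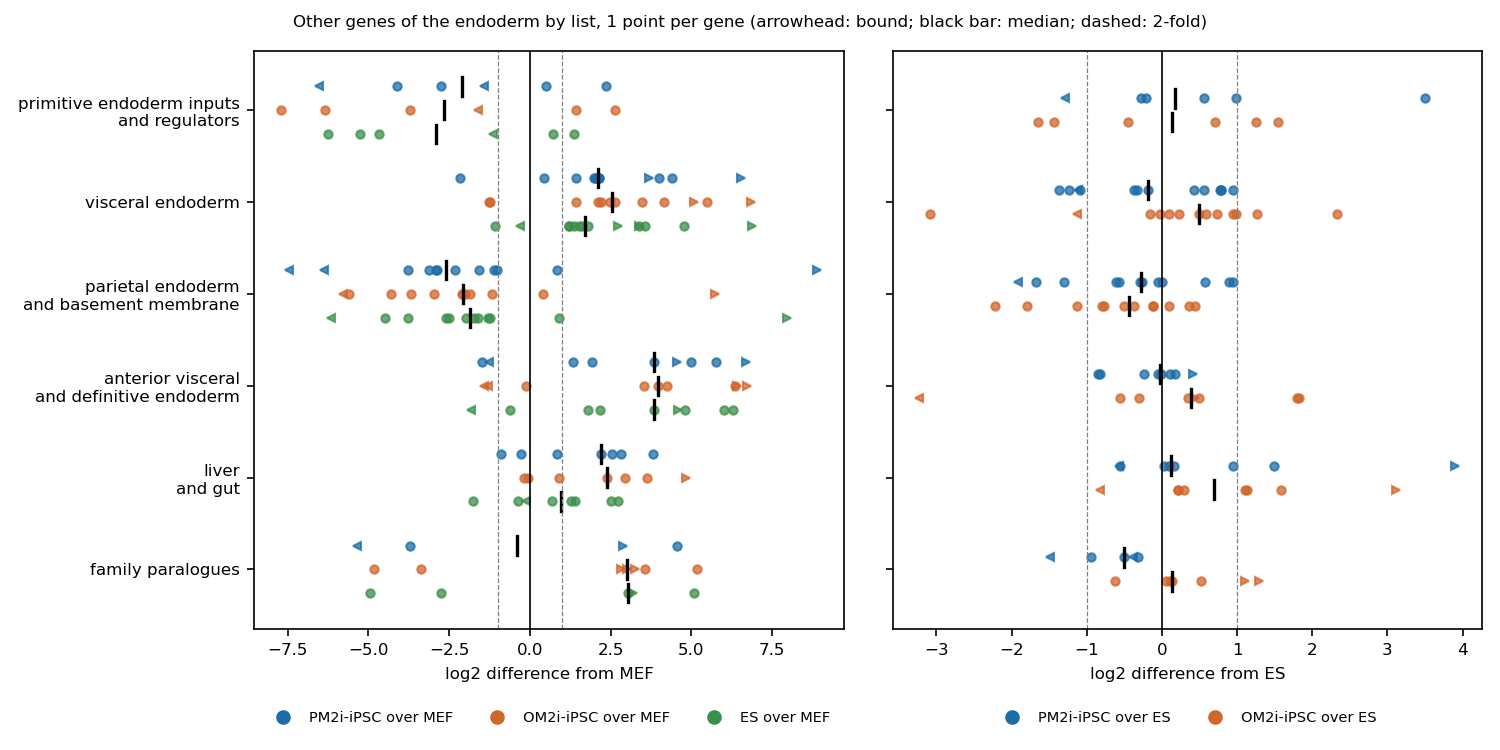
Log2 difference from MEF (left) and from ES (right) of the other endoderm genes by list, with 1 point per gene, arrowheads for bounds, black bars for medians and dashed lines at 2-fold. Visceral and anterior genes lie mostly right of 0 in the MEF panel and parietal genes left of 0, while most points in the ES panel lie inside the 2-fold lines.

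Several endoderm regulators are shared with other lineages, so markers of these were read on the same arrays. Summed endothelial markers, for the lineage that shares Sox7 and Sox17, were 2.57 in PM2i-iPSC, 2.42 in OM2i-iPSC, 1.19 in ES and 0.316 in MEF. Cldn5 was well above background on every array and made up 54.5%, 86.5%, 75.3% and 68.4% of these sums in that order. Tek had 0.17 in PM2i-iPSC, -1.70 in OM2i-iPSC, -2.05 in ES and -9.02 in MEF, where it was not well above background. A second Tek probe was well above background in ES alone, as was Tie1. Tie1 was at -4.73 in ES, with a floor of -5.13, and at -4.71 in PM2i-iPSC, with a floor of -4.59. The Tie1 flag thus gives no direction between these 2 arrays. Cdh5, the endothelial cadherin, was not well above background in PM2i-iPSC, OM2i-iPSC or ES. Cardiac markers, for the lineage that shares Gata4, summed to 0.204 in PM2i-iPSC, 0.775 in OM2i-iPSC, 0.307 in ES and 0.685 in MEF. Nkx2-5 was not well above background on any array. By their brightest probes Myh6 and Actn2 were well above background in PM2i-iPSC, OM2i-iPSC and ES but not in MEF. A second Myh6 probe was well above background in OM2i-iPSC and MEF alone. Actn2 was 6.53-fold higher in OM2i-iPSC than in ES. Tnnt2 was well above background in OM2i-iPSC, ES and MEF, and made up 97.8% of the MEF sum. Macrophage markers, for a cell type that shares Dab2, summed to 1.29 in PM2i-iPSC, 1.46 in OM2i-iPSC, 2.80 in ES and 2.86 in MEF. Cd68, a lysosomal protein, made up 80.8% of that sum in PM2i-iPSC, 94.8% in OM2i-iPSC and 89.8% in ES. The defining macrophage gene Adgre1 was well above background in MEF alone on its brightest probe, at 0.59, and in OM2i-iPSC alone on its second, at -4.10.

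Trophoblast markers summed to 9.11 in PM2i-iPSC, 13.4 in ES and 0.225 in MEF over 5 genes, and to 9.59 in OM2i-iPSC over the 4 genes with a value. Tfap2c, an AP-2 factor of trophoblast and germ cells, made up 93.2% of the sum in PM2i-iPSC, 84.5% in OM2i-iPSC, 97.7% in ES and 56.1% in MEF. The trophoblast gene Elf5 was not well above background on any array, whereas Cdx2, a factor of trophoblast and hindgut, was 11.0-fold higher in OM2i-iPSC than in ES. The mesoderm gene T was not well above background on any array, and Mesp1 on none by its brightest probe and in ES alone, at -4.36, by its second. Mesoderm markers summed to 0.215 in PM2i-iPSC, 0.0946 in OM2i-iPSC, 0.0737 in ES and 0.476 in MEF. Tbx6 made up 91.9% of the MEF sum, and in OM2i-iPSC none of these markers was well above background by its brightest probe. Neural markers summed to 0.898 in PM2i-iPSC, 1.61 in OM2i-iPSC, 0.890 in ES and 1.74 in MEF. Nes made up 70.5% of the MEF sum. By their brightest probes Sox1 and Pax6 were well above background in PM2i-iPSC, OM2i-iPSC and ES but not in MEF. The part of these cell types in the levels of the endoderm genes was not tested.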

How the data were processed

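The scanner files hold spot intensity, deposited by the authors as Agilent Feature Extraction output, version 10.7.3.1 for PM2i-iPSC, OM2i-iPSC and ES and 9.5.3.1 for MEF, per the file headers. Total RNA was extracted with Trizol and labelled with Cy3, per the labels' protocols. The deposited series table holds the same intensity rounded to 3 significant digits (largest gap 0.498%, column medians 493, 522, 414 and 165 for PM2i-iPSC, OM2i-iPSC, ES and MEF), on a linear scale and uncentred, and was used as an alternative. The other 4 value columns, from Affymetrix arrays, were not used.

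Control spots were left out, each array was scaled to the 75th percentile of its processed signal, outlier spots were dropped (126 to 263 an array), log2 was taken and spots of a probe were averaged. Probe names (41174 probes) were brought up to date through a RefSeq gene table, 23553 by accession, 6289 by symbol and 2953 through an earlier symbol, while 8379 stayed as the file has them. For counts a gene was its brightest probe (highest mean over the arrays), and 8931 genes had several. A dim side not well above background was set to its own level or to the array's floor (its lowest flagged signal), whichever was higher. The fold is then "at least", as with a saturated brighter side. Genes entered a comparison when well above background on either array, and 2-fold was the threshold. Counts at 4-fold, also intended, are not given. Coordinates and sequences come from the MEF file, whose header names build mm7 (mm8 on the others). Exon and UTR annotation was not used here.

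The endoderm genes and all lists were chosen with earlier results of these data known. Of each other list, up to 4 genes with the widest difference in PM2i-iPSC or OM2i-iPSC against MEF or ES and up to 2 opposite ones are named. Some genes that this rule takes are not reported here. Marker genes of other cell types are given as sums, with some of them by name. Ttr, Apoa1, Cer1, Mixl1 and Gsc were named after their values were seen. Each value was recomputed under 8 other choices of scaling, background correction, source table, probe and spots, and under 1 chosen after seeing the data, the brightest unsaturated probe. Counting was tested on simulated data made from copies of the ES array, scored on measured differences only. The copies share the same flags, so bounds between arrays with unlike floors were not tried. Python 3.11.15, pandas 2.3.3, numpy 2.4.6, matplotlib 3.10.9, R 4.3.3 and limma 3.58.1 were used. With 1 array per group no test was possible, and the number of arrays limits the precision.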

Additional observations from a re-analysis of the deposited data

Results flagged for a closer look

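In the wider endoderm lists 3 genes were at least 2-fold above a common reference array in one iPSC preparation and at least 2-fold below it in the other, and the difference between preparations was not tested. Fgfr1 differed from ES by 3.50 on the log2 scale in PM2i-iPSC and by -1.44 in OM2i-iPSC, by its brightest probe, and 2 other Fgfr1 probes were higher than ES in both preparations. Fgfr2 differed from ES by at most -1.29 (a bound) in PM2i-iPSC and by 1.55 in OM2i-iPSC, and a second probe was higher than ES in both. Dkk1 differed from MEF by 1.91 in PM2i-iPSC and by at most -1.42 (a bound) in OM2i-iPSC, by its brightest probe. A second Dkk1 probe was well above background in PM2i-iPSC and ES but not in OM2i-iPSC or MEF. In OM2i-iPSC it was at -4.64, just under the floor of -4.60, and it gives no direction there against MEF. None of the 7 endoderm regulators and markers was at least 2-fold above a reference in 1 preparation and 2-fold below it in the other. Over the whole array, 247 of 18508 genes (1.33%) moved oppositely against ES and 103 of 18849 (0.546%) against MEF.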

How the results depend on the processing

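Of 243 values for the 27 differences of endoderm genes, under 9 alternatives each, 176 stayed within the spot spread of the reported value, 64 moved further with no turn of a 2-fold difference, and 3 turned the sign of a difference reported at 2-fold or more. Those 3 came with the mean of all probes: Dab2 was 0.38 above MEF in OM2i-iPSC and 0.26 above it in ES, and Sox7 was -1.62 from ES in OM2i-iPSC. The sign also turned in 16 values of differences reported under 2-fold, 10 of them of Gata6, 4 of Gata4, 1 of Sox17 and 1 of Dab2. Among these, Gata4 in OM2i-iPSC against MEF was -0.25 with the 50th percentile (0.49 as reported), and Gata6 in PM2i-iPSC and OM2i-iPSC against MEF was 0.52 and 0.22 with quantile normalization and 2.29 and 1.32 with the unsaturated probe (-0.20 and -0.41). Counts of endoderm genes changed by more than 1.5 times in 11 of 108 values, and smaller changes are not among these 11. For example, 3 genes were at least 2-fold higher in PM2i-iPSC than in MEF as reported. That count was 2 with the 50th percentile and with quantile normalization. It was 4 with the mean of all probes and with the brightest unsaturated probe. The changes beyond 1.5 times were as follows. With the mean of all probes 0 genes were at least 2-fold lower than MEF in PM2i-iPSC, OM2i-iPSC or ES (1 each as reported), 4 were higher than MEF in OM2i-iPSC (2), 2 were lower than ES in PM2i-iPSC (1), 0 were higher (1) and 2 were lower (0) than ES in OM2i-iPSC, and 1 was lower in PM2i-iPSC than in OM2i-iPSC (2). With the 50th percentile 2 were lower than MEF in OM2i-iPSC (1), and 7818 of all genes were (5091). Quantile normalization gave 2 lower than ES in PM2i-iPSC (1), and a 75th percentile over probes detected on all arrays gave 2 higher than ES in OM2i-iPSC (1). Among the other endoderm genes together, 3 were at least 2-fold higher in PM2i-iPSC than in ES as reported, against 7 with that percentile, 6 with quantile normalization and 5 with the mean of all probes, and the other 105 of 108 such values stayed within 1.5 times. Counts of all genes stayed within 1.5 times in 107 of 108 values and those of the single lists in 587 of 648. The cause of these changes was not tested. Signal over background limits Foxa2, Afp and 3 of 4 Sox17 probes. No paired analysis was possible because each group has 1 array.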
